A study of Mus musculus with 173 samples.

Results

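A group of 6 kidney transcripts, listed as a single co-segregating block, was followed through every animal of a mouse intercross: ENSMUST00000087657, ENSMUST00000111868, ENSMUST00000032373, ENSMUST00000045855, ENSMUST00000066747 and ENSMUST00000074241. They are 6 of the 37264 transcript rows measured, and they were chosen by identifier because earlier fits of these same values had shown discrete levels and shared variation. The animals were 173 male F2 mice, aged 13 weeks, from a cross of MRL/MpJ females with SM/J males whose progeny were intercrossed to give 371 F2 animals. All had been housed singly for 3 days and fasted for 4 hours, none received a treatment, and each kidney was measured on 1 array, so the design holds 1 group of 173 animals. Total kidney RNA was profiled on Affymetrix arrays, and every value below is a log2 array value summarised per transcript. In whole-kidney RNA, fewer cells of a type and less RNA per cell cannot be told apart. The tables used here pair no transcript identifier with a gene symbol, a position or a sequence, so the 6 are described by identifier and no kidney marker gene could be looked up.

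In an F2 intercross of inbred strains, each autosomal locus leaves an animal with both copies from one strain, both from the other, or one of each. A transcript whose level follows such a locus falls into up to 3 levels. The ratio is 1:2:1 where all 3 genotypes differ in level, and another ratio where some genotypes share a level. Transcripts that follow the same or closely linked loci take their levels together across animals. They may run in the same direction or in opposite directions. Rows of a transcript array that were built from shared probes also vary together, and a strain difference in the sequence that a probe matches can alter hybridisation while the transcript amount stays the same. Genotypes were not used here.

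The 6 rows did not behave as 1 block. ENSMUST00000087657, ENSMUST00000111868, ENSMUST00000032373 and ENSMUST00000045855 formed a set of 4 whose members tracked each other, and ENSMUST00000066747 and ENSMUST00000074241 formed a second set of 2. Over the 173 animals the absolute Spearman correlation was between 0.69 and 0.98 for the 7 pairs within the sets and between 0.25 and 0.45 for the 8 pairs that joined them. The membership of the sets was read from these correlations, so the contrast is a description and was not tested.

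Every row fell into 3 fitted levels. Models with 3 Gaussian classes of common SD and shares of 1:2:1 were compared with continuous models by the Bayesian information criterion (BIC), a row being called discrete when the class model led by more than 10. All 6 rows were called, against 211 of 17110 rows (1.23%) with a mean above the median of row means. Since the 6 were listed for that property, nothing is read from the count. Their leads ran from 47.8 for ENSMUST00000074241 to 284 for ENSMUST00000087657. The 6 stood at places 2, 5, 12, 62, 70 and 75 among the 206 rows with 3 classes when these were ordered by the distance of the outer classes in within-class SDs.

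ENSMUST00000087657 ranged from 5.90 to 8.93 over the animals, with a median of 7.95. Its fitted levels were 6.17, 7.95 and 8.66, with a within-class SD of 0.12 (n = 173). No animal lay between 6.47 and 7.53, so the 42 low animals stood clear of the rest by 1.06. The 95 middle and 36 high animals were parted by a gap of only 0.16, between 8.30 and 8.46. The step from low to middle was 1.78 (3.43-fold in array signal) and the step from middle to high 0.71 (1.64-fold).

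ENSMUST00000111868 repeated that picture. Its values ran from 5.91 to 8.88 with a median of 7.87, and its levels were 6.18, 7.87 and 8.56 with a within-class SD of 0.13 (n = 173). An empty interval of 0.90 separated 42 low animals from 95 middle ones, while the middle and high animals were 0.096 apart. The low levels of both rows lay below 7.25, the median of all row means, in the dimmer part of the arrays' range, and their outer folds of 5.61 and 5.19 are folds of array signal.

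ENSMUST00000032373 ran the other way, and all of its values were above 7.25. It ranged from 9.50 to 12.02 with a median of 11.12, and its levels were 9.77, 11.13 and 11.67 with a within-class SD of 0.13 (n = 173). The 36 low animals were set off from the 97 middle ones by 0.73, between 10.14 and 10.87. The 97 middle and 40 high animals almost met, with 0.031 between them. The outer levels differed by 1.90, or 3.73-fold.

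ENSMUST00000045855 had closer and broader classes. Values lay between 7.25 and 9.54 with a median of 8.80, around levels of 7.90, 8.80 and 9.31 and a within-class SD of 0.16 (n = 173). Its outer levels differed by 1.40, a 2.65-fold difference. Gaps of 0.093 and 0.024 divided the 42 low, 96 middle and 35 high animals, so neighbouring classes touched. When each class was given an SD of its own, the low class was the widest, with 0.23 against 0.12 in the middle and 0.13 in the high class.

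The outer classes of the set of 2 lay 8.08 within-class SDs apart in ENSMUST00000074241 and 8.25 in ENSMUST00000066747, against 8.90 in ENSMUST00000045855. ENSMUST00000074241 ranged from 8.34 to 9.77 with a median of 9.14, and its levels were 8.62, 9.16 and 9.52 with a within-class SD of 0.11 (n = 173), an outer difference of 0.90 or 1.87-fold. Its 41 low, 100 middle and 32 high animals were 0.028 and 0.017 apart, so its classes also touched. ENSMUST00000066747 ranged from 6.27 to 8.47 with a median of 7.33, around levels of 6.49, 7.36 and 7.99 and a within-class SD of 0.18 (n = 173). A gap of 0.23 set off its 37 low animals, whereas 0.023 lay between the 103 middle and 33 high ones. Its low level was below 7.25, so its outer fold of 2.84 is one of array signal.

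**Figure D1:**
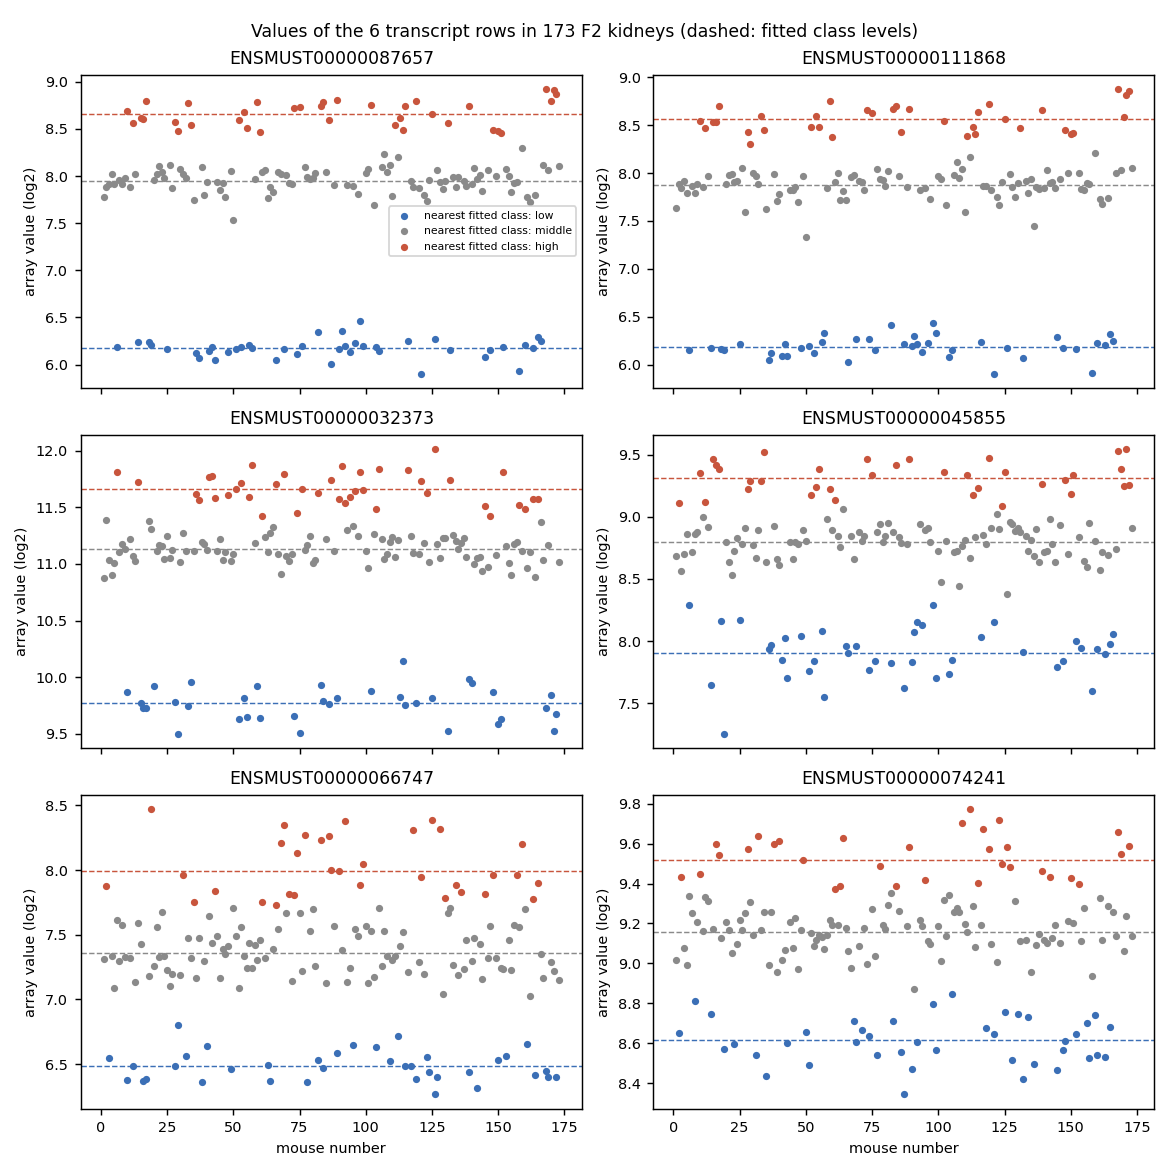
Log2 array value (vertical axis) of each of the 6 transcript rows against mouse number (horizontal axis), 1 point per kidney, coloured by the nearest fitted class, with dashed lines at the fitted class levels. The low class of ENSMUST00000087657 and ENSMUST00000111868 and that of ENSMUST00000032373 stand apart from the other classes, while the classes of ENSMUST00000045855 and ENSMUST00000074241 touch.

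The middle class was nearer to the high than to the low class in all 6 rows. The low-to-middle step was 2.50 times the middle-to-high step for ENSMUST00000087657, 2.44 times for ENSMUST00000111868 and 2.54 times for ENSMUST00000032373. For ENSMUST00000045855, ENSMUST00000074241 and ENSMUST00000066747 that ratio was 1.73, 1.49 and 1.39. With the low class at -1 and the high class at 1, the middle class stood at 0.428, 0.419 and 0.435 in the first 3 rows and at 0.268, 0.197 and 0.163 in the others, against a median of 0.186 over the 206 rows with 3 classes. Set against the mean of the outer levels on the linear scale, the middle level differed by -0.065 log2 units in ENSMUST00000066747, by 0.12 in ENSMUST00000032373 and by 0.020 to 0.055 in the other 4 rows. ENSMUST00000087657 and ENSMUST00000032373 ran in opposite directions, so the animals past the short step of one were mostly past the long step of the other: 34 of the 36 animals high in ENSMUST00000087657 were low in ENSMUST00000032373, and 38 of its 42 low animals were high there.

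Class shares left free were close to one another within the set of 4. For ENSMUST00000087657 the low class took 24.3%, the middle 54.8% and the high class 21.0% of animals. For ENSMUST00000032373 these shares were 20.8%, 56.7% and 22.5%, and for ENSMUST00000045855 they were 24.1%, 56.8% and 19.0%. ENSMUST00000032373 ran opposite to ENSMUST00000087657, so its 20.8% stands against 21.0% and its 22.5% against 24.3%. In these fits of 3 classes with a common SD, the middle class was larger in the set of 2, with 61.6% for ENSMUST00000066747 and 59.5% for ENSMUST00000074241. Their low classes took 21.4% and 23.8%, and their high classes 17.1% and 16.7%. These 2 rows also ran in opposite directions. The high share of 17.1% in ENSMUST00000066747 thus stands against the low share of 23.8% in ENSMUST00000074241, and 21.4% against 16.7%. The rows had been called with the shares fixed, so their nearness to the fixed ratio is partly set by the choice. The error of a share was not computed. In the fit of 4 levels given below, the level of ENSMUST00000066747 at 7.31 took 48.9%, so its larger middle class depends on the class model.

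One pair of rows shared nearly all of its signal. ENSMUST00000087657 and ENSMUST00000111868 had a Spearman correlation of 0.98 over the 173 animals and a Pearson correlation of 0.998, the only pair of the 15 with a Spearman correlation above 0.9. By Pearson correlation, ENSMUST00000045855 also passed 0.9 with both rows, at 0.906 with ENSMUST00000087657 and 0.905 with ENSMUST00000111868. With 5 principal components removed, the Spearman correlation of ENSMUST00000032373 with each of the pair was -0.92. The difference of ENSMUST00000087657 and ENSMUST00000111868 had an SD of 0.069 over animals, below the within-class SDs of 0.12 and 0.13, and ran from -0.21 in mouse 145 to 0.28 in mouse 27. All 173 animals had the same nearest class in both rows, so that 0 were apart (exact 95% interval 0 to 2.11%, counting error only). The rows also agreed inside classes. After each animal's own class level was subtracted, the deviations correlated at 0.89, and within classes the correlation was 0.94 among the 95 middle animals, 0.93 among the 36 high ones and 0.56 among the 42 low ones. The 2 rows are therefore to be read as 1 finding, although neither was identical to any other row of the table. Counts of pairs and of following rows in this report still include both.

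The other pairs inside the sets shared their classes far more than their deviations. ENSMUST00000087657 and ENSMUST00000032373 correlated at -0.82, ENSMUST00000087657 and ENSMUST00000045855 at 0.79, ENSMUST00000032373 and ENSMUST00000045855 at -0.69, and ENSMUST00000066747 and ENSMUST00000074241 at -0.79. Deviations from the class levels correlated between -0.083 and 0.175 in the 14 pairs other than ENSMUST00000087657 with ENSMUST00000111868. Inside the classes of ENSMUST00000087657, the correlation with ENSMUST00000032373 was 0.13 among the 42 low, -0.13 among the 95 middle and 0.080 among the 36 high animals. With ENSMUST00000045855 it was 0.33, 0.080 and 0.39 in the same classes, which still hold the animals in which the rows parted. Inside the low, middle and high classes of ENSMUST00000066747, the correlation with ENSMUST00000074241 was -0.16, -0.24 and -0.13, weaker than the pooled value in each. All correlations here come from the same 173 arrays and share their normalization.

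**Figure D2:**
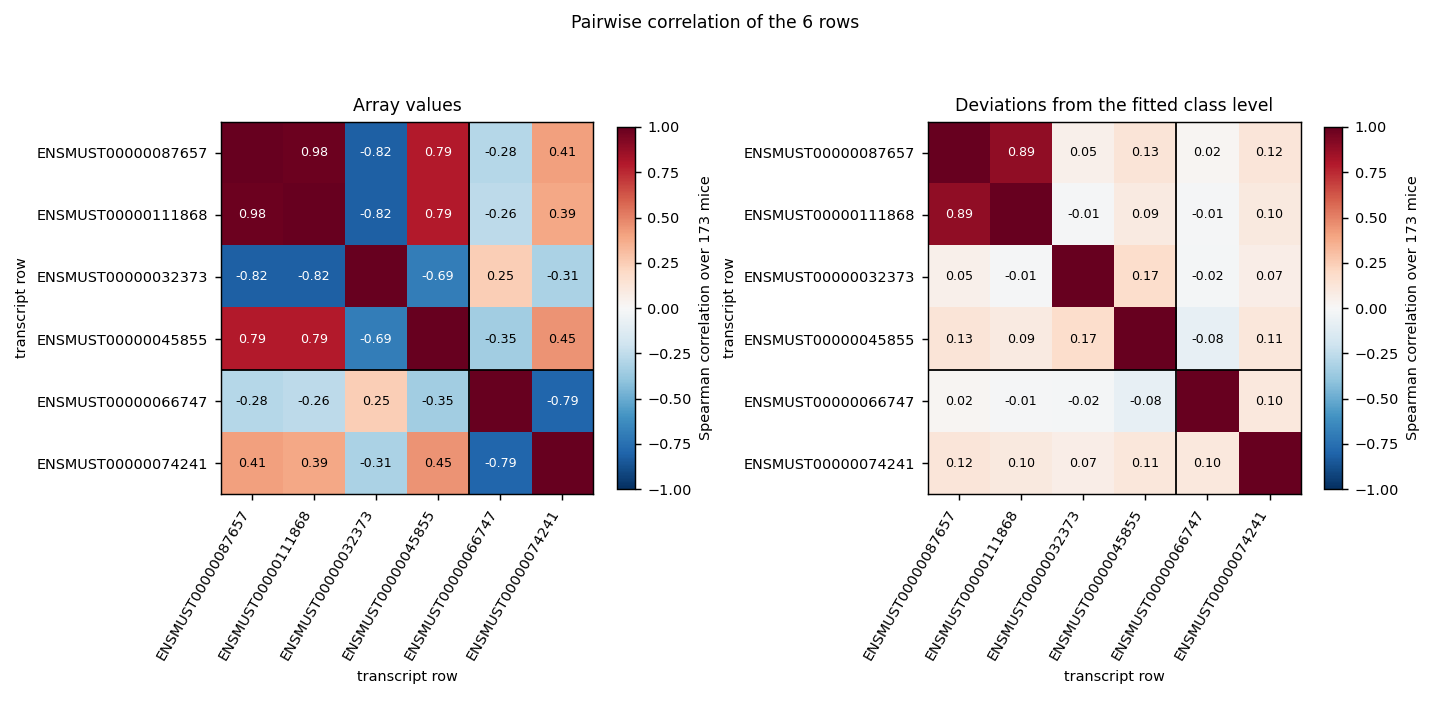
Spearman correlation over 173 mice between the 6 transcript rows, for the array values (left) and for deviations of each mouse from its nearest fitted class level (right), with black lines between the set of 4 and the set of 2. Array values correlate at 0.69 to 0.98 in absolute value within the sets and at 0.25 to 0.45 between them, and among deviations only ENSMUST00000087657 and ENSMUST00000111868 exceed 0.175.

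The signs formed a simple pattern. Of the 15 pairs, 7 were positive and 8 negative, and exchanging the direction of ENSMUST00000032373 and ENSMUST00000066747 made all of them positive. Animals low in ENSMUST00000087657, ENSMUST00000111868 and ENSMUST00000045855 were thus mostly high in ENSMUST00000032373. In the same way, animals low in ENSMUST00000074241 were mostly high in ENSMUST00000066747. Below, low and high are exchanged in these 2 rows before the classes of different rows are compared.

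ENSMUST00000087657 and ENSMUST00000032373 took matching classes in 163 of 173 mice and parted in 10 (5.78%, exact 95% interval 2.81 to 10.4%). All 10 were 1 class apart, and no mouse sat at opposite ends. In 7 of the 10, both rows gave their class a posterior probability above 0.95. Mice 20 and 140 were the clearest of the middle animals: their ENSMUST00000087657 values of 7.96 and 7.92 were at the middle level, but their ENSMUST00000032373 values of 9.92 and 9.94 were in the isolated low class. Mice 12 and 111 were the reverse case, high in ENSMUST00000087657 at 8.56 and 8.54 but middle in ENSMUST00000032373 at 11.07 and 11.06. Another 4 mice, low in ENSMUST00000087657, were middle in ENSMUST00000032373: mice 19 and 25, at 11.31 and 11.25, and mice 18 and 166, at 11.38 and 11.37. Mice 18 and 166 lay just below the lowest animal called high in ENSMUST00000032373, at 11.42. Mouse 123, middle at 7.74 and high at 11.62, came from 1 of the 5 arrays least like the median array.

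ENSMUST00000087657 and ENSMUST00000045855 parted in 13 mice (7.51%, exact 95% interval 4.06 to 12.5%), again never by more than 1 class. In mice 65 and 154, ENSMUST00000087657 stood at 7.83 and 8.00 in its middle class while ENSMUST00000045855 lay in its low class at 7.96 and 7.95. Mouse 96 was low in the first row at 6.23 and middle in the second at 8.91. Its difference between the 2 rows, in units of each row's SD over animals, was the largest of the 173. Mice 60, 83, 86, 114 and 131 were high in ENSMUST00000087657, at 8.47 to 8.75, but middle in ENSMUST00000045855, at 8.79 to 8.89. Mouse 169 was the opposite, middle at 8.06 and high at 9.39. Both posterior probabilities exceeded 0.95 in 9 of the 13 mice, and the other 4, mice 2, 61, 124 and 126, lay near a class boundary of ENSMUST00000045855.

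The partings of ENSMUST00000032373 and ENSMUST00000045855 from ENSMUST00000087657 shared 1 mouse. With partings in 5.78% and 7.51% of all mice, nothing is read from that low number. Of the 22 mice in which the set of 4 was divided, 9 had only ENSMUST00000032373 out of step with ENSMUST00000087657, 12 had only ENSMUST00000045855 out of step, and mouse 61 had both. In mouse 61 the values of 11.43 and 9.14 lay close to class boundaries, with a lowest posterior probability of 0.577. In the 5 mice high in ENSMUST00000087657 but middle in ENSMUST00000045855, ENSMUST00000032373 kept its matching low class, at 9.52 to 10.14. In mice 20 and 140, ENSMUST00000045855 kept the middle class, at 8.80 and 8.72. ENSMUST00000032373 and ENSMUST00000045855 themselves parted in 22 mice (12.7%, exact 95% interval 8.14 to 18.6%), 15 of them with both posterior probabilities above 0.95. The number of mice apart was thus 10 and 13 from ENSMUST00000087657 to each of these rows and 22 between them.

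**Figure D3:**
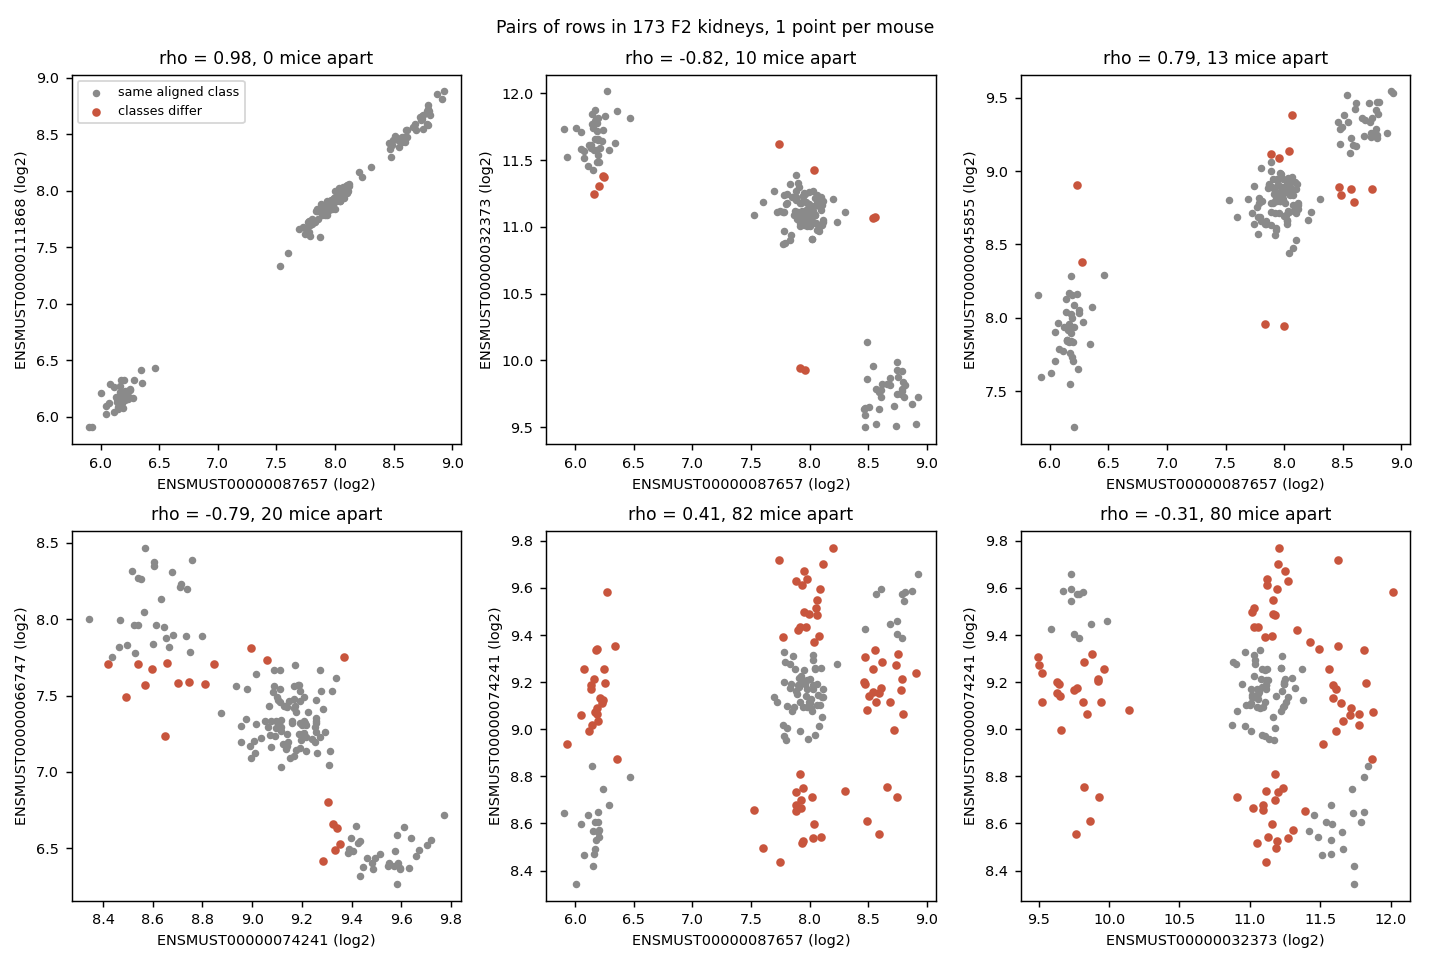
Log2 array values of 6 pairs of transcript rows, 1 point per mouse (n = 173), in grey where the nearest fitted classes match and in red where they differ, after low and high were exchanged for pairs that run in opposite directions. The number of mice apart is 0, 10, 13 and 20 in the 4 pairs within sets and 82 and 80 in the 2 pairs between sets.

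ENSMUST00000066747 and ENSMUST00000074241 parted in 20 mice (11.6%, exact 95% interval 7.21 to 17.3%), but these cases were of another kind. In only 2 of the 20, mice 51 and 152, did both rows give a posterior probability above 0.95. Mouse 152 stood at 7.24 in ENSMUST00000066747, its middle class, and at 8.65 in ENSMUST00000074241, its low class. Mouse 51 had 7.49 and 8.49. The 18 others had a lower posterior probability in at least 1 row, and 2 of them, mice 29 and 50, came from the 5 arrays least like the median array. Of the 20, 11 were low in ENSMUST00000074241 but middle in ENSMUST00000066747, where mouse 152 stood at 7.24 and the other mice between 7.49 and 7.71.

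The high class of ENSMUST00000066747 was its widest. Given SDs of their own, the low, middle and high classes had SDs of 0.11, 0.16 and 0.30, and the BIC lead over the continuous models was 65.4, against 49.1 with a common SD. One further level, with free shares and a common SD, was tried after the values had been seen and lowered the BIC by 16.3 from that of 3 such levels, whose lead was 45.5. The 3 levels with SDs of their own thus had the larger lead, and a further level is not established. The 4 fitted levels were 6.49, 7.31, 7.75 and 8.26, with shares of 21.4%, 48.9%, 22.0% and 7.69% and a within-class SD of 0.14. The upper levels held all but 2 of the 41 animals low in ENSMUST00000074241, 26 at 7.75 and 13 at 8.26, and the lowest level held 31 of its 32 high animals. The level at 7.75 also held 10 animals middle and 1 high in ENSMUST00000074241, and the lowest level held 6 middle ones. Of the other rows among the 6, none gained as much from a further level: the BIC of 3 levels minus that of 4 was 0.136 for ENSMUST00000111868, 0.283 for ENSMUST00000045855 and between -10.2 and -6.38 for the rest. The 20 partings of the set of 2 were counted with 3 levels of common SD for both rows.

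Across the 2 sets, classes matched in far fewer mice, 89 to 96 of 173. The middle class was the largest in every row, so rows that vary independently would also match in many mice. That number was not computed. The number of mice apart was between 77 and 84 in the 8 pairs, against 0 to 22 in the 7 pairs within sets. Of the 42 mice low in ENSMUST00000087657, 20 were low, 21 middle and 1 high in ENSMUST00000074241. Of the 36 mice high in ENSMUST00000087657, 12 were high, 20 middle and 4 low. The 95 mice in its middle class comprised 17 low, 59 middle and 19 high ones. Opposite ends were rare but present, in 5 mice for this pair, in 8 for ENSMUST00000087657 with ENSMUST00000066747 and in 9 for ENSMUST00000032373 with ENSMUST00000066747.

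Both sets were internally undivided in 133 mice, and among these the classes of the sets can be read directly. They matched in 77 mice, of which 53 were middle in all 6 rows, 12 low and 12 high on the scale of ENSMUST00000087657 and ENSMUST00000074241. They lay 1 class apart in 54 mice, and at opposite ends in 2, both high in the set of 4 and low in the set of 2. Where the set of 4 was low, the set of 2 was low in 12, middle in 14 and high in 0 mice. These counts were 12, 53 and 15 where the set of 4 was middle, and 2, 13 and 12 where it was high. Many of the matches lie in the large middle classes, and the number for independent sets was not computed.

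**Figure D4:**
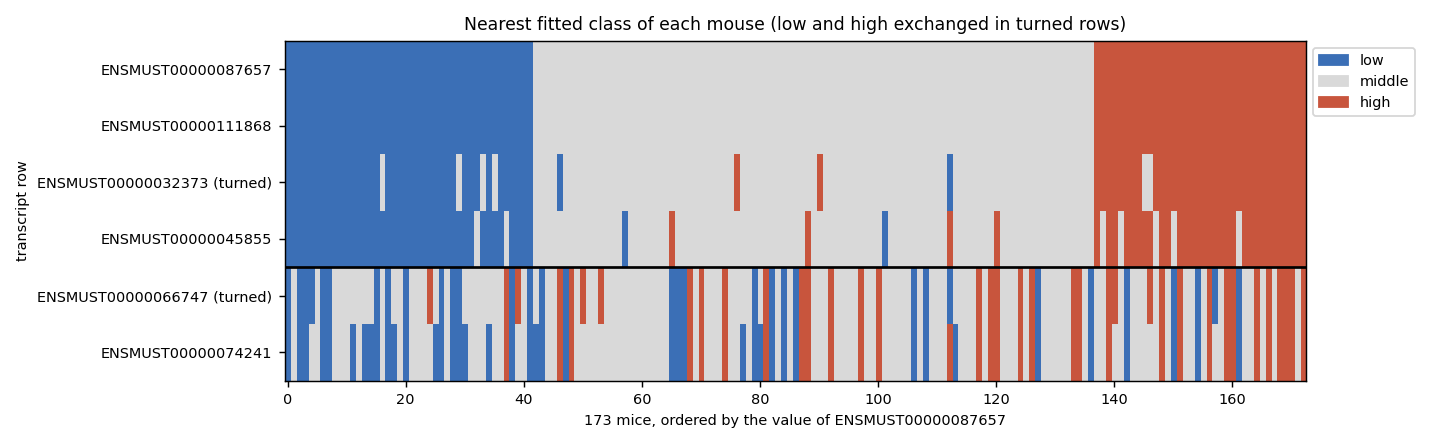
Nearest fitted class (blue low, grey middle, red high) of each of the 173 mice, ordered from left to right by the value of ENSMUST00000087657, for the 6 transcript rows, with low and high exchanged in ENSMUST00000032373 and ENSMUST00000066747. The blocks of colour run through the set of 4 apart from 22 mice, and break up below the black line in the set of 2.

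The correlations between the sets can be placed among those of the other rows, but the 6 had been listed for shared variation in these values, so the placing is a description of the choice. Of the other rows, 0.273% of 34400 distinct ones correlated with ENSMUST00000087657 at least as strongly as ENSMUST00000074241 did, at 0.41, and 0.927% as strongly as ENSMUST00000066747 did, at -0.28. Over the 8 pairs this share lay between 0.235 and 1.34%. The median absolute correlation of the 34400 rows with ENSMUST00000087657 was 0.063 and their 95th percentile 0.19. ENSMUST00000045855 was the row of the set of 4 most strongly correlated with the set of 2, at 0.45 with ENSMUST00000074241 and -0.35 with ENSMUST00000066747. ENSMUST00000032373 was the least, at -0.31 and 0.25.

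Other rows of the table followed the same animals. An absolute Spearman correlation above 0.5 was reached with ENSMUST00000087657 by 60 of the 34400 rows (0.174%), with ENSMUST00000111868 by 62 (0.18%), with ENSMUST00000032373 by 58 (0.169%) and with ENSMUST00000045855 by 64 (0.186%). For ENSMUST00000066747 and ENSMUST00000074241 the counts were 27 (0.0785%) and 30 (0.0872%). Together they made 104 rows, 76 for the set of 4 (0.221%) and 31 for the set of 2 (0.0901%). Only exact repeats had been left out, so these counts include families of nearly identical rows. An example is ENSMUST00000089449, ENSMUST00000113581, ENSMUST00000113582 and ENSMUST00000113585, which correlated with each other at 0.990 to 0.997. The lists shared 3 rows, 3.95% of the longer and 9.68% of the shorter, against those background shares of 0.0901% and 0.221%. Members of the set of 4 and of the set of 2 themselves correlated at 0.25 to 0.45 in absolute value. Some excess over unrelated rows is thus built into the lists, and nothing is read from it. Above 0.3 the lists held 423 and 243 rows, with 132 in both, and above 0.7 they held 19 and 8, with 0 in both. With 5 principal components removed they held 87 and 42 above 0.5, with 0 in both. The background shares at these settings were not computed. Short lists of unrelated rows would mostly share 0 rows as well, so nothing is read from these overlaps. All 76 rows that followed the set of 4 had opposite signs with ENSMUST00000087657 and ENSMUST00000032373: 32 were positive with the first and 44 with the second. The lists of single members overlapped closely inside a set: 49 rows were shared by ENSMUST00000087657 and ENSMUST00000032373, 81.7% of the list of the first and 84.5% of that of the second, and 26 by ENSMUST00000066747 and ENSMUST00000074241, 96.3% and 86.7% of their lists. ENSMUST00000087657 and ENSMUST00000066747, whose lists held 0.174% and 0.0785% of all rows, shared 0 rows, and nothing is read from that. These signs and overlaps are largely set by the correlations of the members themselves. Those were -0.82 for ENSMUST00000087657 with ENSMUST00000032373 and -0.79 for ENSMUST00000066747 with ENSMUST00000074241. The signs and overlaps are thus a description, and nothing further is read from them.

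The closest partner of ENSMUST00000087657 outside the 6 was ENSMUST00000032353, with a correlation of 0.94, and it was also the closest partner of ENSMUST00000111868 (0.92), ENSMUST00000032373 (-0.81) and ENSMUST00000045855 (0.77). It had fitted levels of 6.06, 7.65 and 8.37 with a within-class SD of 0.17. Its nearest class differed from that of ENSMUST00000087657 in 1 animal, mouse 150, with 7.98 against 8.48. Its deviations from class levels correlated at 0.65 with those of ENSMUST00000087657 and at 0.023 with those of ENSMUST00000032373. With ENSMUST00000087657 and ENSMUST00000111868 it thus formed a group of 3 rows that shared variation inside classes as well as between them.

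The next partners of ENSMUST00000087657 were ENSMUST00000111827 (0.83) and ENSMUST00000095350 (-0.80), and the same 2 rows were next for ENSMUST00000111868, with 0.83 and -0.80. For ENSMUST00000032373 they stood at -0.78 and 0.80. ENSMUST00000045855 was followed next by ENSMUST00000087675 (-0.76) and ENSMUST00000032330 (-0.75). ENSMUST00000111827 had levels of 10.85, 11.45 and 11.78 and differed in class from ENSMUST00000087657 in 19 mice. For the set of 2 the closest partner was ENSMUST00000065103, at -0.84 with ENSMUST00000074241 and 0.80 with ENSMUST00000066747, with levels of 8.78, 9.27 and 9.61. It differed in class from ENSMUST00000074241 in 11 mice and from ENSMUST00000066747 in 18. ENSMUST00000070524 and ENSMUST00000067492 came next for both, between 0.74 and 0.78 in absolute value.

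At the threshold of 0.5, ENSMUST00000111891 (0.503) was the nearest row above and ENSMUST00000088468 (0.497) the nearest below for ENSMUST00000087657. For ENSMUST00000111868 these were ENSMUST00000088468 (0.508) and ENSMUST00000019354 (0.492), and for ENSMUST00000032373 they were ENSMUST00000112900 (0.502) and ENSMUST00000024223 (0.486). The nearest rows were ENSMUST00000058538 (-0.503) and ENSMUST00000111704 (-0.496) for ENSMUST00000045855. They were ENSMUST00000070345 (-0.504) and ENSMUST00000101126 (0.490) for ENSMUST00000066747, and ENSMUST00000088962 (0.5005) and ENSMUST00000065906 (-0.497) for ENSMUST00000074241. Rows on both sides of the threshold thus had nearly the same correlations.

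**Figure D5:**
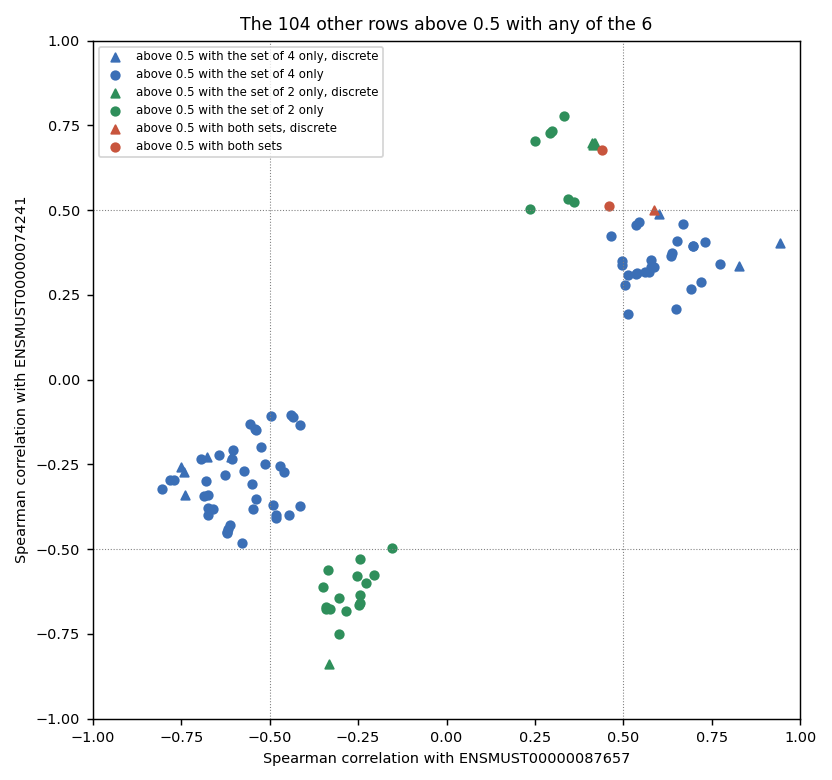
Spearman correlation with ENSMUST00000087657 (horizontal axis) and with ENSMUST00000074241 (vertical axis) over 173 mice for the 104 other transcript rows above 0.5 in absolute value with any of the 6 rows. Triangles are rows with discrete classes and dotted lines mark 0.5. The rows of each set lie in separate clouds of the same sign, with 3 rows above 0.5 with both sets.

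Of the 104 rows, 14 were themselves called discrete, 9 following the set of 4 and 6 the set of 2, with 1 row in both. Only rows with a mean above the median of row means could be called, and 79 of the 104 were such rows. Over the whole table, 211 of 17110 such rows (1.23%) were called. The 104 were listed for their correlation with discrete rows, so nothing is read from the count of 14. Their outer classes lay between 1.43-fold and 4.97-fold apart. The row in both was ENSMUST00000088962, with levels of 7.70, 8.21 and 8.55. It correlated at 0.59 with ENSMUST00000087657, 0.70 with ENSMUST00000045855 and 0.5005 with ENSMUST00000074241, and it was the only discrete row above 0.5 with members of both sets. Linking the discrete rows of the table above 0.5 put all 6 into 1 group of 20. Linking above 0.7 left the set of 4 in a group of 13 and the set of 2 in a group of 3, with ENSMUST00000065103. ENSMUST00000112957, which correlated with ENSMUST00000088962 at 0.99, likewise was closer to ENSMUST00000045855 (0.71) than to ENSMUST00000087657 (0.60). These 2 rows were named after their values had been seen.

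The Spearman correlation of each row with the similarity of its array to the median array lay between -0.16 for ENSMUST00000032373 and 0.20 for ENSMUST00000087657, where the 5th and 95th percentiles over all distinct rows were -0.20 and 0.18. ENSMUST00000087657 and ENSMUST00000111868, at 0.203 and 0.183, lay above the 95th percentile of 0.178, and the part of array quality in their levels was not tested beyond leaving arrays out. The lag-1 autocorrelation along mouse number was between -0.054 for ENSMUST00000066747 and 0.12 for ENSMUST00000032373, within the 5th and 95th percentiles of -0.099 and 0.15. Their highest absolute correlation with any of the first 5 principal components was between 0.13 and 0.30, against a median of 0.395 over distinct rows. The labels give no array batch or collection date. Without the 5 arrays least like the median array, the absolute correlations were 0.70 to 0.98 within the sets and 0.26 to 0.45 between them.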

How the data were processed

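Kidney RNA of 173 F2 males was measured on 173 arrays. The authors deposited log2 array values made with affy and RMA, per the submitters' processing notes. Software versions and the make-up of each probe set were not given in the sources used here. RMA equalizes the arrays' distributions, so a difference in total signal between kidneys is lost, and it shrinks differences between dim values. The table held 37264 rows, of which 2858 repeated an earlier row exactly and were left out, leaving 34406. Arrays give no read depth; the number of arrays limits the precision.

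For every row, Gaussian, skew-normal and Student t models, 3 Gaussian classes of shares 1:2:1 and 2 of shares 1:1 were fitted by maximum likelihood (numba 0.67.0, scipy 1.17.1). A row was called discrete at a BIC lead above 10 over the best continuous model. Models were tried on simulated rows drawn from Gaussian classes of common SD and shares 1:2:1, or from a single Gaussian. Rows with unequal SDs, skew or heavy tails were not simulated, so the trial does not cover them. An animal's nearest class is that of the highest posterior probability; no mean was taken over animals grouped by class. Correlations are descriptions without p-values. Labels name separate mice. Named partner rows are the 3 most correlated with each member and the nearest on each side of 0.5. Rules that needed gene symbols (kidney markers, flanking genes) were not run. The 6 rows, the lists and the thresholds were chosen with earlier results of these data known. Alternatives changed normalization, arrays, components, class model and thresholds.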

Additional observations from a re-analysis of the deposited data

How the results depend on the processing

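All 6 rows kept a BIC lead above 10 with arrays quantile-normalized again, without 5 arrays, with 5 principal components removed, with free class shares, with a separate SD per class and, added after the values had been seen, with 4 classes, the lowest lead being 33.3 under the last, and 7 of the 15 pairs kept an absolute correlation above 0.5 under the settings of arrays and components and with Pearson correlation on log2 and linear values. The smallest correlation within a set ran from 0.68 to 0.81 over these settings and the largest between sets from 0.44 to 0.46. A set was divided in 40 mice in all. That number fell to 18 when both rows of a pair had to give a posterior probability above 0.95. Fewer mice are then counted, but the share apart also fell, most in the set of 2. ENSMUST00000066747 and ENSMUST00000074241 parted in 2 of 119 such mice, against 11.6% of all mice. For ENSMUST00000087657 the counts were 7 of 163 with ENSMUST00000032373, against 5.78%, and 9 of 150 with ENSMUST00000045855, against 7.51%. The threshold leaves out animals near class boundaries, where the calls of a pair differ most easily, so a fall is partly built in. Animals at or below 0.95 numbered 31 in ENSMUST00000066747 and 30 in ENSMUST00000074241. They numbered 1 in ENSMUST00000087657, 9 in ENSMUST00000032373 and 22 in ENSMUST00000045855. Rows above 0.5 with any of the 6 numbered 104, against 534 above 0.3 and 27 above 0.7. Of the values for single rows and pairs, 101 moved by less than the within-class SD, the standard error of a correlation or 1.5 times a count, 25 moved by more, and none (0) changed sign. With 5 components removed, the correlation of ENSMUST00000087657 with ENSMUST00000032373 was -0.92, in place of -0.82. Their outer differences were 2.26 and 1.70, in place of 2.49 and 1.90. Their BIC leads fell to 114 and 71.1, from 284 and 185, and that of ENSMUST00000111868 fell to 110 from 250. The cause of these changes was not tested. No paired analysis was possible because the animals form 1 group. The low levels of ENSMUST00000087657, ENSMUST00000111868 and ENSMUST00000066747 lay below 7.25, the median of all row means. Dim signal may limit these classes, but no background level was measured and this was not tested.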

Other observations

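Individual animals stood at the ends of several rows. Mouse 19 had the lowest value of ENSMUST00000045855 (7.25) and the highest of ENSMUST00000066747 (8.47), while its ENSMUST00000087657 value of 6.21 was ordinary for the low class. Mouse 126 had the highest value of ENSMUST00000032373 (12.02) and the lowest of ENSMUST00000066747 (6.27), with ENSMUST00000045855 at 8.38, in the interval where its low and middle classes meet. Mouse 61 was the only animal with both sets divided besides mouse 12.

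A few rows named after their values had been seen stood together. The discrete rows that followed the set of 2 held a cluster of their own. ENSMUST00000089449, ENSMUST00000113581, ENSMUST00000113582 and ENSMUST00000113585 correlated with each other at 0.990 to 0.997, at 0.69 to 0.70 with ENSMUST00000074241 and at -0.68 with ENSMUST00000066747. Their classes differed from those of ENSMUST00000074241 in 39 or 40 mice, against 11 for ENSMUST00000065103.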
